A study of Mus musculus with 2 samples.

Results

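The genes described are 7 transcription factors of the trophectoderm (Tfap2c, Cdx2, Elf5, Gata2, Gata3, Tead4 and Esx1) and 3 keratin genes of simple epithelia, Krt8, Krt18 and Krt19. They were chosen by name, and every probe set annotated to exactly 1 of these symbols was taken, which gave 18 probe sets for 10 genes out of 34945 probe sets for 18193 genes on the array. The cells were E14, an embryonic stem (ES) cell line of the mouse, at passage 9, grown on gelatin (0.1%) in medium with 15% fetal bovine serum and 1000 U/ml leukemia inhibitory factor. One group (shCtrl) was infected with a lentivirus carrying a non-targeting shRNA and the other (shSin3a-1) with a lentivirus carrying an shRNA against Sin3a, the scaffold protein of a histone deacetylase complex. Both were selected with puromycin before RNA was taken, and 1 shRNA against Sin3a was used. Each group had 1 Affymetrix array, so no value below has a replicate, no test between the groups is possible, and the number of arrays limits the precision.

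The trophectoderm is the outer epithelium of the blastocyst and the source of the placental trophoblast, whereas ES cells derive from the inner cell mass. In outer cells TEAD4, with its coactivator YAP, switches on Cdx2 and Gata3, while Hippo kinases keep YAP inactive in inner cells. ELF5 and CDX2 maintain trophoblast stem cells, AP-2 gamma (encoded by Tfap2c) and the GATA factors activate trophoblast genes, and ESX1 is an X-linked homeodomain protein of the placenta. Keratin 8, a type II keratin, pairs with the type I keratins 18 and 19 to form the first keratin filaments of the embryo, and these filaments mark simple epithelia. In ES cells the trophectoderm programme is held down, in part by OCT4 (encoded by Pou5f1). AP-2 gamma is also a factor of the germ line.

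The promoters of the keratin partners are shown because both genes were lower in shSin3a-1 and lie in the same keratin cluster. In the RefSeq gene order of GRCm38.p6, only the lncRNA genes Gm36026 and Gm41404 lie between Krt8 and Krt18. The sequences are the 250 bases before the RefSeq start, 5′ to 3′ on the strand of each gene, at chr15:102004343-102004592 (minus strand) for Krt8 and chr15:102027966-102028215 (plus strand) for Krt18. Capitals mark matches to the motifs searched, on both strands. The AP-2 motif was spelled GCCNNNGGC. For TEAD proteins the letters were GGAATG, and for GATA proteins they were AGATAA. The E-box of MYC, MAX and MXD proteins was spelled CACGTG, and for proteins of the ETS family the letters AGGAAG were used.
Krt8: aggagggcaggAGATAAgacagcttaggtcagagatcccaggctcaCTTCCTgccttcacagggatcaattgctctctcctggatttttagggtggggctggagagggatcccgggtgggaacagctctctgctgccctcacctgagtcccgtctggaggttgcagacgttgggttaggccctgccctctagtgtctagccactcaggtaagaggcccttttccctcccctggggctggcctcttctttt
Krt18: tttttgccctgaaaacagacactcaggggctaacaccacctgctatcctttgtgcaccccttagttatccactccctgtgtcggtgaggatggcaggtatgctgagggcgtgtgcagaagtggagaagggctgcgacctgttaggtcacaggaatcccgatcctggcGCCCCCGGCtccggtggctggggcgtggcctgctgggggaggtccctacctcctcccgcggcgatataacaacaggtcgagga

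The Krt18 window held 1 match to the AP-2 motif, beginning 83 bases before the start. The Krt8 window held 1 GATA match 239 bases and 1 ETS match 204 bases before the start. RefSeq promoters were found for 7 of the 10 genes, with 9 windows in all, since Elf5 and Gata2 have more than 1. The AP-2 motif was present in 4 of these 9 windows, those of Cdx2, Gata3 and Krt18 and 1 window of Gata2, against 13.7% of 32851 windows of this length over all genes. The TEAD motif was present in 2 windows (Elf5 and Gata2; 12.6% of all windows), the ETS motif in 2 (Cdx2 and Krt8; 29.5%), the GATA motif in 1 (Krt8; 9.99%) and the E-box in 1 (Esx1; 6.02%). No matched letters in the member windows were shared between motifs. The AP-2 motif is rich in G and C, and the GC content was 55.2%, 70.0%, 60.4% and 74.0% in the windows of Cdx2, Gata3, Krt18 and Gata2 that held it, against a median of 52.4% over all windows. These matches describe letters and not binding.

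Values are signals as deposited, on a linear scale, computed with the MAS5 method. Differences are on the log2 scale, shSin3a-1 minus shCtrl, with the median of each array set to the same value, which raised every difference by 0.11 (called centred below). Paired signals are given with shCtrl first. A probe set was kept when at least 1 of its signals reached the 60th percentile of that array, 130.6 in shCtrl and 126.0 in shSin3a-1. Signals under the 40th percentile (46.8 and 41.7) were set to it, so a difference with 1 array at this floor is only a bound on its size, and a probe set under the floor on both arrays has no measured difference. By this rule 11 of the 18 member probe sets were kept, for 6 of the 10 genes: Tfap2c, Gata2, Tead4, Esx1, Krt8 and Krt18. Of the other 7 probe sets, 4 did not reach the floor on either array and 3 lay between the floor and the filter on at least 1 array.

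Sin3a itself was lower on the array labelled shSin3a-1 in 3 of 3 probe sets, at 3072 against 534 in its brightest (log2 difference -2.41). All 10 ES cell markers examined were kept and within 2-fold in the brightest probe set, although a dimmer kept probe set was 2-fold higher for Esrrb (log2 difference 1.18) and Fgf4 (1.00). Their brightest probe sets had a median difference of 0.11 that was 0.00 with the deposited scaling. Pou5f1, Dppa5a and Sall4 changed sign with the scaling. Over all 19146 kept probe sets 894 were 2-fold or more higher and 423 were lower (67.9% of these higher), a split of 648 and 601 (51.9% higher) with the deposited scaling. The SD of the log2 difference between probe sets of 1 gene was 0.38 over 4400 genes, which is a measure of disagreement between probe sets and not of replicate error.

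**Figure D1:**
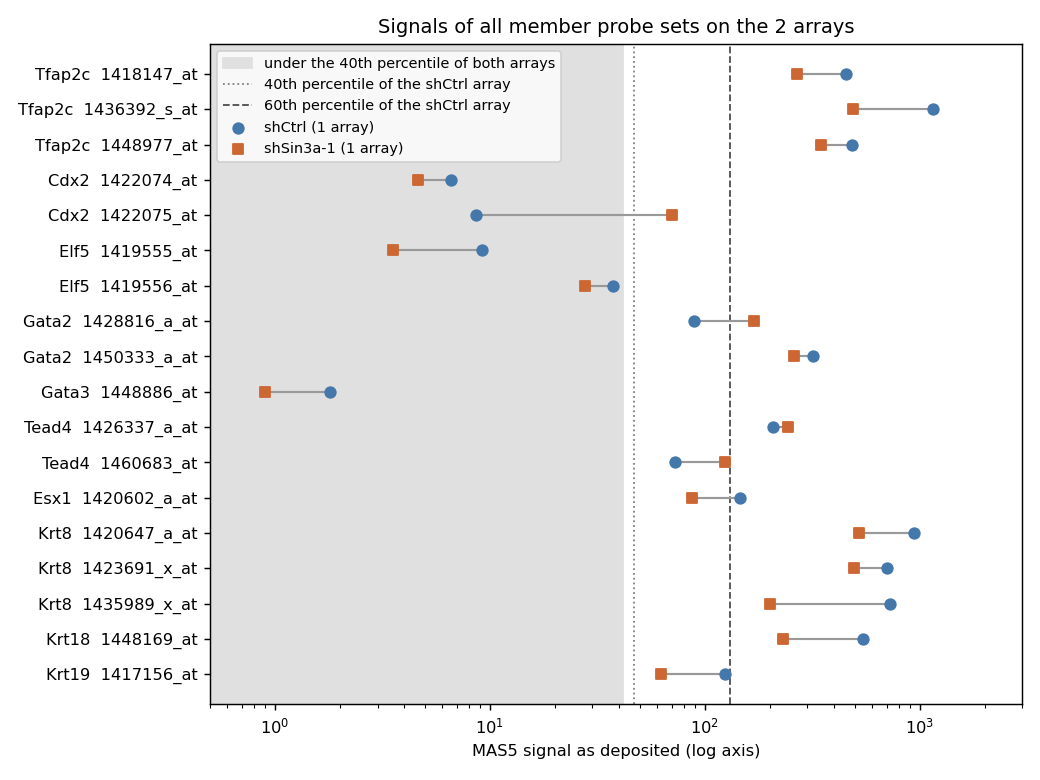
MAS5 signals as deposited (log axis) of the 18 member probe sets on the shCtrl array (circles) and the shSin3a-1 array (squares), with lines at the 40th and 60th percentiles of the shCtrl array and grey shading under the 40th percentile of both arrays. All probe sets of Tfap2c, Krt8, Krt18 and Krt19 lie lower on the shSin3a-1 array, and both probe sets of Elf5 and the 1 of Gata3 lie in the shaded range on both arrays.

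Of the kept member probe sets, 3 were 2-fold or more lower in shSin3a-1, 1 each of Tfap2c, Krt8 and Krt18, where 2.21% of all kept probe sets were. One, of Gata2, was 2-fold or more higher, where 4.67% of all kept probe sets were. That probe set reached the filter on the shSin3a-1 array alone, so a higher value there is partly fixed by the filter. The Esx1 probe set reached it on the shCtrl array alone, and the other 9 reached it on both arrays. In all, 9 of the 11 were below 0, both as centred and as deposited, with a median of -0.63 against 0.09 over all kept probe sets. The 11 are not independent, since several are probe sets of the same gene. Counted by gene, with the brightest probe set standing for each, Tfap2c and Krt18 of the 6 kept members were 2-fold or more lower (2.01% of 9782 kept genes) and none was 2-fold higher (2.43% of kept genes). The median of the 6 was -0.68, against 0.07 over all kept genes, and -0.73 over the 5 that reached the filter on both arrays. Dim probe sets passed 2-fold more often than bright ones. Among probe sets whose brighter signal lay between the 75th and 90th percentile, which held all 7 kept probe sets of Tfap2c, Krt8 and Krt18, 1.24% were 2-fold lower and 3.70% higher, and 3 of these 7 members were 2-fold lower. Between the 60th and 75th percentile, which held the 4 kept probe sets of Gata2, Tead4 and Esx1, 4.48% were lower and 8.02% higher, and 1 of the 4 was 2-fold higher.

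**Figure D2:**
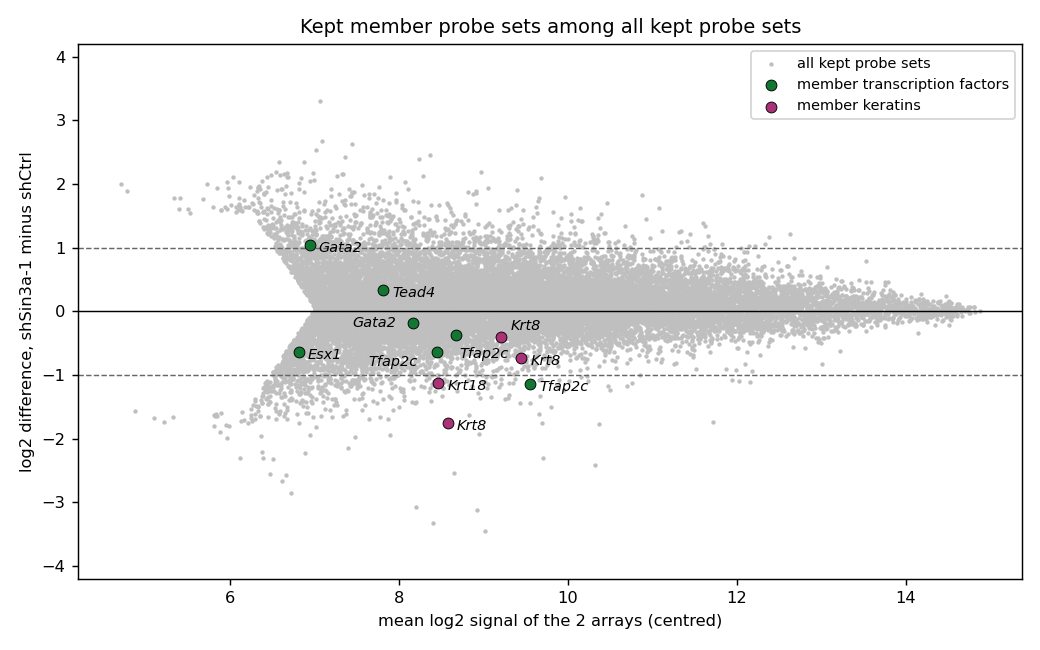
Log2 difference (shSin3a-1 minus shCtrl, centred) against the mean log2 signal of the 2 arrays for all 19146 kept probe sets (grey) and the 11 kept member probe sets (green, transcription factors; purple, keratins), with dashed lines at 2-fold. The 3 member probe sets under the lower line are those of Tfap2c, Krt8 and Krt18, and the Gata2 probe set at the upper line is dim.

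Tfap2c, which encodes AP-2 gamma, was lower in shSin3a-1 in all 3 of its probe sets. Probe set 1436392_s_at read 1157 on the shCtrl array and 487 on the shSin3a-1 array, 2.20-fold lower (log2 difference -1.14). Its suffix marks probes that can match more than 1 transcript, which may include other genes. Probe set 1418147_at had 451 and 269 (-0.64), and probe set 1448977_at had 482 and 346 (-0.37). The direction was the same in all 3, but the size was not, with 1 of 3 past 2-fold and a range of 0.77. Among 624 genes with 3 kept probe sets of this brightness the median range was 0.53, and 68.8% of them had a smaller range. Without probe sets of shared sequence the Tfap2c difference was -0.37, which is that of the brighter probe set without a suffix. The other one without a suffix had -0.64. As the mean of all its probe sets the Tfap2c difference was -0.72, so the call at 2-fold rests on the probe set with the suffix. Across the 5 scalings tried that probe set stayed between -1.27 and -1.14.

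TEAD4, the DNA-binding partner of YAP at the head of the trophectoderm programme, was not lower on either probe set. Probe set 1426337_a_at read 208 and 244 (log2 difference 0.34). Probe set 1460683_at stayed just under the filter, with 72.4 and 123.9 (0.88). Both were above 0 and under 2-fold, and both stayed above 0 in the 5 scalings (0.22 to 0.34 and 0.77 to 0.88).

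The TEAD4 targets Cdx2 and Gata3 were near or under background. Cdx2, the homeobox gene that specifies trophectoderm, had signals of 6.62 and 4.64 for probe set 1422074_at, both under the floor. Probe set 1422075_at read 8.61 in shCtrl and 69.98 in shSin3a-1. The second value lies at percentile 50.9 of its array, below the filter, and with shCtrl at the floor the log2 difference is at least 0.69, or at least 1.61-fold. The probe sets of Cdx2 thus differed, and neither had a kept signal. Gata3, a zinc finger factor of early trophectoderm, had 1 probe set, with signals of 1.81 and 0.90, under the floor on both arrays and at percentiles 1.7 and 0.6.

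Elf5, an ETS factor whose promoter is methylated in ES cells, gave no signal above the floor in either probe set on either array. Probe set 1419556_at read 37.4 and 27.7. Probe set 1419555_at had 9.21 and 3.54. The lower shSin3a-1 numbers of Elf5 and Gata3 lie in the range where MAS5 signals have no usable order, and no difference is given for them.

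Gata2, which regulates trophoblast and blood cell genes, was measured by a pair of kept probe sets that went opposite ways. Probe set 1450333_a_at had signals of 319 and 260 (log2 difference -0.19), and probe set 1428816_a_at had 88.9 and 169.5 (1.04). The dimmer one was 2.06-fold higher as centred and 0.93 on the log2 scale as deposited, which is under 2-fold. The mean of the Gata2 probe sets was 0.43, so the sign for the gene depends on the probe set. Esx1 had 1 probe set, 1420602_a_at, with signals of 146 and 87.0 (-0.63), which passed the filter on the shCtrl array alone. Its difference kept its sign in the 5 scalings (-0.75 to -0.63) and did not reach 2-fold.

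**Figure D3:**
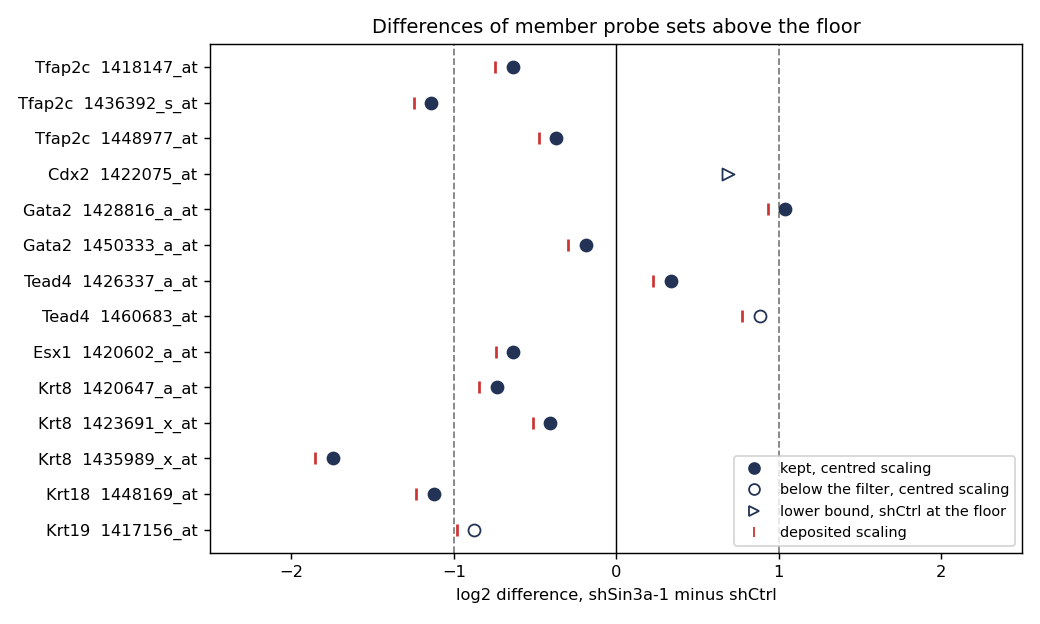
Log2 difference (shSin3a-1 minus shCtrl) of the 14 member probe sets above the floor on at least 1 array, as centred (circles, filled where kept) and with the deposited scaling (red ticks), with dashed lines at 2-fold; the triangle is a lower bound. All 5 keratin probe sets and all 3 of Tfap2c lie below 0 under both scalings, while those of Gata2 lie on both sides of 0 and those of Tead4 above it.

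The member keratins were lower in 5 of 5 probe sets, of which that of Krt19 did not reach the filter. Krt8 was measured by 3 kept probe sets, all with a suffix counted here as shared sequence. Part of their signal may therefore come from further transcripts, of Krt8 itself or of a related gene. Probe set 1420647_a_at, the brightest, had 936 and 522 (log2 difference -0.73), and probe set 1423691_x_at had 707 and 494 (-0.41). Probe set 1435989_x_at had 727 and 201, 3.35-fold lower (-1.75), and 0.162% of all kept probe sets had a lower difference. The Krt8 probe sets agreed in direction and spread over 1.34, a range larger than in 91.8% of the 624 genes with 3 kept probe sets of this brightness. The brightest did not reach 2-fold in any of the 5 scalings (-0.88 to -0.73), and the mean of all 3 gave -0.96.

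Krt18, the type I partner of keratin 8, had 1 probe set, 1448169_at, without a suffix. It read 541 on the shCtrl array and 231 on the shSin3a-1 array, 2.18-fold lower (log2 difference -1.12). It stayed past 2-fold in all 13 alternatives of scaling, floor, filter, offset and probe set rule, between -1.24 and -1.05. Only the other scalings and the offset could move this value. The floors, filters and probe set rules could not, and each left it at -1.12. Krt19, the other type I keratin among the members, had signals of 124 and 62.6 for probe set 1417156_at, a difference of -0.87. Neither value reached the filter, and the shCtrl value lay at percentile 59.2 of its array. Across the 5 scalings Krt19 stayed between -0.99 and -0.87, and Krt18 was the single keratin member whose brightest probe set passed 2-fold.

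Other genes of the pathway, from the lists compared, did not share 1 direction. Of 18 further trophoblast regulators, 17 had a probe set and 7 were kept. By the brightest probe set Id2, an inhibitor of basic helix-loop-helix factors, was the only one 2-fold higher, with signals of 296 and 585 (log2 difference 1.09, and 0.98 as deposited). None was 2-fold lower by this measure, and the median was 0.15. Dimmer kept probe sets passed 2-fold for Esrrb (363 and 761, 1.18) and for Ets2 (265 and 102, -1.27). That of Ets2 reached the filter on the shCtrl array alone. Klf5, shared by ES cells and trophectoderm, had 10100 and 9367 (0.00), and Ets2, an ETS factor of trophoblast, had 1242 and 803 in its brightest probe set (-0.52). Eomes, the T-box factor of trophoblast stem cells, had 83.5 and 89.0 in its brightest probe set (0.20), below the filter. Its other probe set, also below the filter, had 41.8 and 100.4, a difference of at least 1.21 with shCtrl at the floor.

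Of 29 trophoblast surface and product genes, 23 had a probe set and 13 were kept, with a median of -0.24. Phlda2, an imprinted gene that limits placental growth, was lower, with signals of 2601 and 1070 (log2 difference -1.17). Bmp8b, a BMP ligand, was higher, with 94.5 and 175.9 (1.00), reached the filter on the shSin3a-1 array alone, and was under 2-fold as deposited (0.90). Judged by the brightest probe set of each gene, the other 11 did not reach 2-fold. In a dimmer kept probe set Atp1b1 was 2-fold higher (1822 and 3389, 1.00, and 0.90 as deposited). Likewise Ly6e was 2-fold lower in a dimmer probe set (191 and 54.6, -1.70), which reached the filter on the shCtrl array alone. Plac1, Tpbpa, Ctsj and Cts7, genes of differentiated trophoblast, were under the floor on both arrays.

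Of 23 genes of the TEAD, YAP and Hippo pathway 18 were kept, 13 of them above 0, and none passed 2-fold by its brightest probe set. The median was 0.28, or 0.17 as deposited, against 0.07 and -0.03 over all kept genes. Amotl2, a scaffold that binds YAP, came nearest, with signals of 301 and 547 (log2 difference 0.97). Nf2, an upstream activator of the Hippo kinases, had 1499 and 725 in its brightest probe set (-0.94, and -1.05 as deposited, which is past 2-fold). The brightest probe sets of Yap1 (4156 and 3293, -0.23), Tead1 (2148 and 2594, 0.38) and Tead2 (1097 and 1001, -0.02) were all within 2-fold. A dimmer kept probe set of Stk4, a Hippo kinase gene, was 2-fold higher (110 and 239, 1.22, against 0.31 in its brightest). Mob1a and Amotl1 changed sign with the scaling.

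Within the families of the factors most genes were below the filter. Of 9 genes of the AP-2 family and its partners 3 were kept, and Tfap2c was the only AP-2 gene among them. Tfap2b, Tfap2d and Tfap2e did not reach the floor on either array, and Tfap2a had signals of 96.4 and 45.7 in its brightest probe set, below the filter. Its other probe sets, also below the filter, went the other way. They had 58.1 and 67.7 (0.33), and 10.2 and 51.7 (at least 0.25 with shCtrl at the floor). Of 8 genes of the GATA family and its FOG partners 3 were kept, and Zfpm1, which encodes the GATA cofactor FOG1, was higher, with signals of 79.6 and 155.6 (log2 difference 1.08, and 0.97 as deposited), and reached the filter on the shSin3a-1 array alone. Of 9 CDX and ELF genes 3 were kept, all within 2-fold, with Elf2 (824 and 1296, 0.76) the furthest from 0. The median of these 3 was 0.07 as centred and -0.03 as deposited.

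The rest of the keratin family was mostly below the filter. Of 26 other keratin genes 2 were kept, and of their 37 probe sets 3 were kept, all of them lower. Krt42, a type I keratin, had signals of 1613 and 791 in its brightest probe set (log2 difference -0.92, and -1.03 as deposited) and 708 and 327 in the other (-1.01). Its brightest probe set has a suffix for shared sequence. Krt10, a type I keratin of epidermis, had 315 and 178 (-0.71). Krt7, Krt222, Krt5 and Krt6a were below the filter but above the floor on both arrays in their brightest probe sets. Krt7 had 55.4 and 58.4 (0.18, and above 0 in the 5 scalings), while Krt222 (-0.05), Krt5 (-0.57) and Krt6a (-0.63) were below 0. In further keratins the brightest probe set was below the filter with 1 array at the floor. Of these Krt17 (112 and 27.1, at most -1.32) and Krt13 (95.9 and 5.01, at most -1.09) were the furthest from 0. Krt1, Krt4, Krt71, Krt79 and Krt80 were also lower, while Krt72 and Krt76 were higher. The stratified keratins Krt14 and Krt15 were under the floor on both arrays.

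Other intermediate filament genes differed in both directions. Of 13 such genes 10 were kept, 6 of them below 0 and 4 above, none passed 2-fold by its brightest probe set, and the median was -0.09. Des, which encodes desmin of muscle, was the lowest, with signals of 288 and 150 in its brightest probe set (log2 difference -0.83). The neuronal filament genes Nefh (-0.58) and Ina (-0.51) and the neural progenitor gene Nes (-0.41) were also below 0. Nes reached the filter on the shCtrl array alone. The neuronal filament genes did not share 1 direction, since Nefl was higher in its brightest probe set (341 and 520, 0.72). It was also higher in a dimmer one (77.7 and 132.5, 0.88), which reached the filter on the shSin3a-1 array alone. Nefm, below the filter, was higher as well (63.7 and 104.9, 0.83). Vim, which encodes vimentin, the filament protein of mesenchymal cells, was higher in 3 of 3 probe sets, with signals of 5078 and 8401 in the brightest (log2 difference 0.84), and with 1.22 and 1.03 in the others. The desmosome and keratin anchoring genes had 13 of 17 kept and none past 2-fold, with a median of -0.23. By the brightest probe set Pkp3, which encodes the desmosomal plaque protein plakophilin 3, was the furthest from 0, with 328 and 200 (-0.60). By the same measure Epcam and Cdh1, which encode epithelial adhesion proteins, were at 0.20 and -0.29. A dimmer kept probe set of Epcam, with a suffix for shared sequence, went the other way (486 and 250, -0.85).

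**Figure D4:**
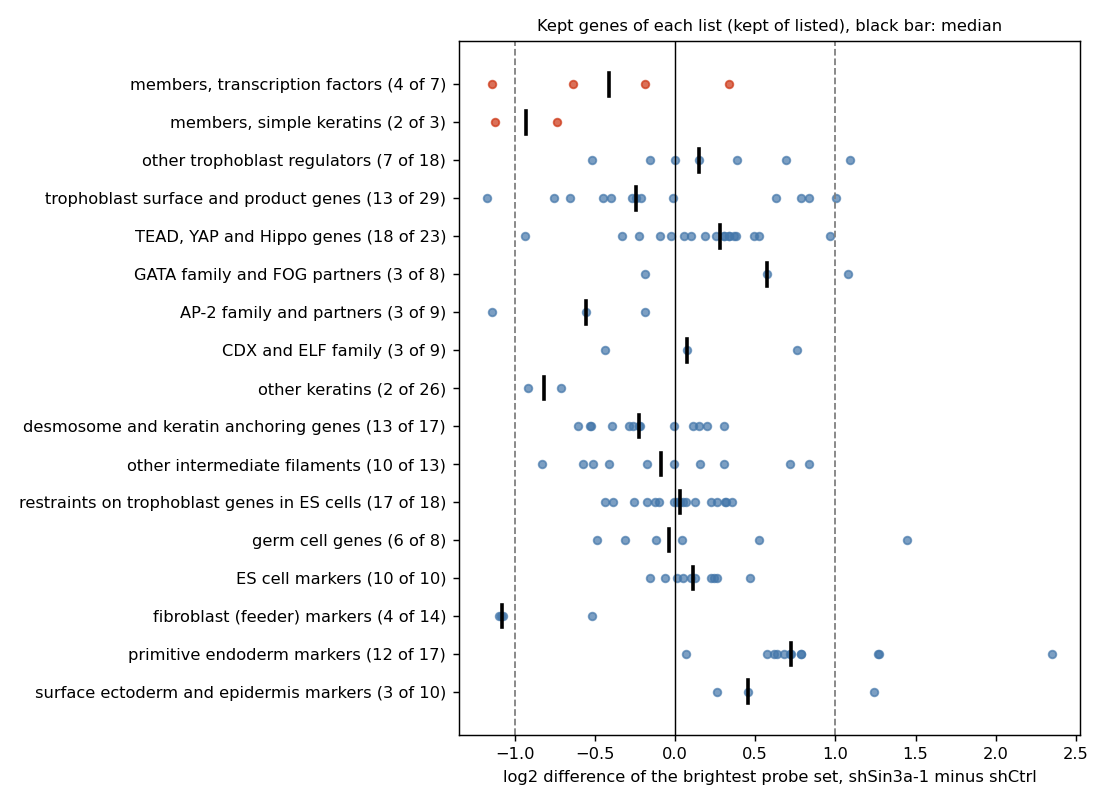
Log2 difference of the brightest probe set (shSin3a-1 minus shCtrl, centred) for the kept genes of each list, 1 point per gene, with the number kept of the number listed; black bars are medians and dashed lines are at 2-fold. The kept keratins, members and others, lie below 0, the TEAD, YAP and Hippo genes lie within 2-fold as centred, and the primitive endoderm markers lie above 0, of which Lamc1 changes sign with the scaling.

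Genes that restrain trophoblast genes in ES cells, among them Pou5f1, Nanog, Polycomb subunits and DNA and histone methyltransferases, had 17 of 18 members kept and none past 2-fold by the brightest probe set. Their median was 0.03, and -0.08 as deposited. Setdb1, a histone H3 lysine 9 methyltransferase, was the furthest from 0 by this measure, with signals of 1486 and 1019 (log2 difference -0.44) and with 0.47 in a dimmer probe set. Dimmer kept probe sets passed 2-fold for Rnf2, a Polycomb ubiquitin ligase (76.4 and 310.2, 2.13, against 0.32 in its brightest), and for Dnmt3a, a DNA methyltransferase (500.1 and 172, -1.43, against -0.26). Of 8 germ cell genes, listed because AP-2 gamma also acts in the germ line, 6 were kept. By the brightest probe set Dazl was the only one past 2-fold, higher, with 151 and 381 (1.45). A dimmer kept probe set of Kit was also 2-fold higher (1.12, against 0.52 in its brightest). The germ cell median was -0.04.

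Markers of other cell types that could contribute keratin or trophoblast signal were read on the same arrays. Of 14 fibroblast markers 4 were kept, and Mmp2 (309 and 134, log2 difference -1.10), Pdgfrb (203 and 89.0, -1.08) and Loxl1 (181 and 80.0, -1.07) were 2-fold lower. Of the 4, Mmp2 alone reached the filter on both arrays and the other 3 did so in shCtrl only, which partly fixes their direction. Col1a1, Col3a1, Col6a1, Dcn, Lum and Postn did not reach the floor on either array. The collagen genes Col6a2 (108 and 13.9) and Col1a2 (32.2 and 49.6) were below the filter in their brightest probe sets. Acta2 was also below the filter, and 1 of its probe sets lay at 0.57 to 0.75 in the 5 scalings. The signals of the 14 brightest probe sets summed to 1237 in shCtrl and 674 in shSin3a-1. Of 17 primitive endoderm markers 12 were kept, all above 0 with a median of 0.72, though Lamc1 changed sign with the scaling. In that list a dimmer kept probe set of Lamb1, which reached the filter in shSin3a-1 only, was 2-fold higher (1.62, against 0.79 in its brightest). By the brightest probe set Sox17 (41.1 and 221, at least 2.35 with shCtrl at the floor), Pdgfra (58.5 and 131, 1.27) and Amn (103 and 230, 1.26) were 2-fold higher. These 3 are among 5 of the 12 that reached the filter in shSin3a-1 only, which partly fixes their direction, and the median of the 7 that reached it on both arrays was 0.68. The summed signal of the list was 5556 and 7599, and Afp did not reach the floor. Below the filter, Gata4 was higher in its brightest probe set (66.6 and 90.2, 0.55). By contrast, 1 probe set each of Hnf4a (-0.48 to -0.26) and Ttr (-0.63 to -0.43) stayed below 0 in the 5 scalings. Of 10 markers of surface ectoderm and epidermis 3 were kept, all above 0, with Sfn 2-fold higher (149 and 327, 1.24). Below the filter, Krt5 (99.6 and 62.4, -0.57) and Trp63 (57.5 and 28.3, with shSin3a-1 at the floor) were lower in their brightest probe sets. The summed signal was 1848 and 2253, and Krt14, Krt15, Ivl and Krtdap were under the floor on both arrays. The part of these other cells in the keratin and Tfap2c values was not tested. With RNA from whole cultures, fewer cells that express a gene and less of its RNA per cell cannot be told apart.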

How the data were processed

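RNA from 2 ES cell cultures, 1 per group, was measured on 1 Affymetrix 3' array each, and groups were taken from the shRNA named in the labels. The values deposited by the authors are intensity signals on a linear scale, and the tools named per the submitters' processing notes are Affymetrix Expression Console and MAS5, whose versions, like the genome build, were not given in the sources used here. MAS5 subtracts mismatch signals, so ratios near background are unreliable. Both arrays had a trimmed mean of 500 with 2% of the values left off at each end.

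Symbols came from the platform annotation (34958 of 45101 probe sets with 1 symbol, 932 with several, 9211 with none), updated through Entrez identifiers with RefSeq GRCm38.p6 (34754 matched). The 64 control probe sets were left out. Signals were taken to log2 and centred on each array's median (6.17 and 6.06 before). The filter was the 60th percentile, the floor the 40th, and calls were made at a fold of 2. With 1 array per group no p-value or SD over samples was computed. Promoters are RefSeq sequences of GRCm38.p6. The procedure was tested on simulated data.

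Members, gene lists and rules were chosen with earlier results of these data known. Named are all members, Sin3a, and from each list the kept genes past 2-fold (at most 4 per direction) or else the one furthest from 0; any other gene was chosen after its value was seen. Alternatives covered scaling, floor, filter, offset, probe set rule, shared sequence and fold threshold. Python 3.11.15, pandas 2.3.3, numpy 2.4.6 and statsmodels 0.14.6 were used.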

Additional observations from a re-analysis of the deposited data

How the results depend on the processing

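Of 83 values of the member counts and medians under alternatives, 65 stayed close to the reported value and 18 moved. No median changed sign, and counts cannot. The other floors could not move these values and left all of them the same. Among single genes, which are not part of the 83, Gata2 changed sign in 1 alternative, the mean of its probe sets. A median counted as moved when it shifted by over 0.38, the SD between probe sets of 1 gene, and a count when it changed by over 1.5 times. The count of member probe sets 2-fold higher (1, of Gata2) was 0 as deposited, with quantile scaling or scaling on the 75th percentile, with a filter as strict as that percentile, with an offset of 32 and at a fold threshold of 3, and 2 with no filter and no floor. The count of probe sets 2-fold lower (3) was 6 at a fold threshold of 1.5 and 1 at 3. The count of genes 2-fold lower (2) was 1 when probe sets of shared sequence were dropped for genes that have another, and in the mean of all probe sets, 4 at a threshold of 1.5 and 0 at 3. The count of genes 2-fold higher (0) was 1, Cdx2, with no filter and no floor. In an alternative chosen after seeing the data, every probe set of shared sequence (suffix a, s or x) was dropped. Then 3 kept probe sets of Tfap2c and Krt18 remained, with 1 probe set and 1 gene 2-fold lower (Krt18) and 0 probe sets 2-fold higher, and Krt8 had no value. The median of kept genes (-0.68) was -1.12 with the filter at the 75th percentile, over the 3 genes left, and otherwise at most -0.62. The median of kept probe sets ranged from -0.75 to -0.50. Over all kept genes, calls split into 238 higher and 197 lower (54.7% higher) as centred, but 166 and 273 (37.8%) as deposited and 156 and 282 (35.6%) on the 75th percentile. No paired analysis was possible because each group has 1 array. Signal over background limits Cdx2, Elf5, Gata3 and Krt19.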

Other observations

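Probe sets of 1 gene differed in size or sign for several genes around the members, which were chosen after their values were seen. Ly6e, which encodes the receptor of the trophoblast fusion protein syncytin-A, read 1405 on the shCtrl array and 771 on the shSin3a-1 array in its brightest probe set (log2 difference -0.76) and 191 and 54.6 in another (-1.70). Ets2 had 265 and 102 in a kept probe set with a suffix for shared sequence (-1.27), against -0.52 in its brightest. The brightest probe set of Nf2 was at -0.94 and 3 others, all kept, were at -0.55, -0.35 and 0.10. Wwtr1, which encodes the YAP paralog TAZ, was above 0 in 3 of 3 kept probe sets (0.52, 0.74 and 0.88), while Yap1 was at -0.23 in its brightest and at 0.49 in a dimmer one.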
